A study of Rattus norvegicus with 34 samples.

Results

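The 3 arrays of rat cortical neuron cultures taken 24 h after severe neurotrauma were set against the 3 arrays labelled as cultures 48 h after mild neurotrauma. They are 6 of 34 Illumina RatRef-12 V1 bead arrays, chosen by their titles, and they were described across 21756 named genes. Every culture held primary neurons from cortices of Hooded Wistar embryos (the strain field says Wistar), kept for 21 days, with no genotype or transgene given. The labels place the embryos at embryonic day 17 in one field and at gestation day 15 to 16 in another. Bundles of axons were cut with a knife or stretched by puffs of oxygen, and the labels do not say which was the severe and which the mild injury. Wells were pooled for each time and 3 cultures came from different pregnant rats, but no label ties an array to a culture. The p-values therefore measure the spread between arrays, which may be partly technical. For comparison within severe injury, 3 arrays each at 8, 15 and 48 h and a single array at 0 h were used. These arrays also entered the fit, so the spread behind every standard error and p-value was estimated from all 16 arrays together.

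The deposited value is a ratio, and all 16 of these arrays share its divisor. For each probe an array's signal, scaled to that array's median, had been divided by the mean of the 3 arrays labelled mild 48 h, here called the reference arrays. Their own ratios therefore lie near 1 by construction. The divisor cancels when arrays are compared on the log2 scale, so a difference between severe 24 h and reference arrays is a difference between their signals. The reference labels are uncertain. In the ratio table these 3 arrays stand at places 19 to 21, the end of the mild series. In the deposited signal table the columns with matching values stand at places 4 to 6, directly after those matching control replicates 1 to 3, and the 13 severe arrays keep places 22 to 34 in both tables. Labels read in that other order would make the reference arrays control replicates 4 to 6. The comparison below is therefore between arrays labelled severe 24 h and arrays labelled mild 48 h, and injury strength, time after injury and a possible mislabelling cannot be told apart in it. Whether either group departed from uninjured cultures was not analysed here, because the control arrays carry a different divisor.

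Cultured cortical neurons grow beside other cells of the embryonic cortex. Astrocytes support neurons and clear transmitter, cells of the oligodendrocyte lineage make myelin, ependymal cells carry motile cilia that beat on the ventricle wall, and meningeal fibroblasts lay down collagen and small proteoglycans. Injury to axons is known to activate astrocytes, stress responses and inflammatory genes. In RNA from a whole culture, fewer cells of a type and less RNA per cell cannot be told apart. A ratio carries no signal level, so the presence of neurons could not be checked from these values. Only differences in their markers are given.

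Between the severe 24 h and the reference arrays, 2012 of 21864 tested features passed an adjusted p under 0.05, which is 9.2% of all (limma, Benjamini-Hochberg adjustment; features are genes plus 108 unnamed probes). Of these, 624 were higher at severe 24 h (2.85% of all features) and 1388 were lower (6.35%). The median difference over all features was 0.02 on the log2 scale. A difference of at least 2-fold was reached by 804 of the called features, 294 higher and 510 lower. The groups did not overlap at 3420 features that were higher and 3442 that were lower, together 31.4% of all. When every array was centred on 160 ribosomal, proteasome and oxidative phosphorylation genes, the calls were 1144 higher and 1087 lower. The 76 ribosomal genes among these were themselves mostly lower at severe 24 h. Median centring gave 613 higher and 1490 lower calls, and quantile normalization 537 and 876. The excess of lower calls was thus absent only in the first of these scalings. Leaving out reference replicate 2 or 3 left 1328 or 1307 calls.

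The bead chip was a further difference between the groups. The reference arrays lay on 3 chips, and 2 of the 3 severe 24 h arrays lay on another chip that held no reference array. With the chip as a block, 909 features were called (4.16%), 154 higher (0.704%) and 755 lower (3.45%), and 904 of them were among the 2012. One chip held severe 24 h replicate 1 and reference replicate 2. Within that pair 2011 of the 2012 differences had the direction of the whole comparison. Both arrays are part of the fit that made the calls, so this agreement was largely fixed in advance and is no test of the chip. In what follows "called" means an adjusted p under 0.05 without the block, SE is the standard error of a log2 difference, and "under the block" gives the count or adjusted p with the chip as a block. With quantile normalization, 23 of the 118 called genes chosen by rule lost their calls, and 10 of these had kept them under the block: they are named below with their adjusted p.

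The lowest ratios at severe 24 h belonged to genes of connective tissue. Tnmd, a membrane protein of tendon and ligament cells, had ratios of 0.0104, 0.0237 and 0.0401 on the severe 24 h arrays and 0.922, 1.04 and 1.03 on the reference arrays. It was thus 46.5-fold lower, the log2 difference being -5.54 ± 0.67 (SE, n = 3 against 3, limma adjusted p = 0.000182). Lum, a keratan sulphate proteoglycan that binds collagen fibrils, had ratios of 0.0104, 0.0195 and 0.092 against 0.993, 1.03 and 0.973, a difference of -5.23 ± 0.89 (limma adjusted p = 0.00231). All 3 severe 24 h arrays were far below all 3 reference arrays for each gene, and replicate 3 was the highest of the 3 for both. The smallest ratio in the deposited values was 0.01, which occurred 3 times, and 0.0104 lies close to it. Tnmd and Lum were among the genes that reached it on an array of the series, so the sizes of their falls are less certain than their direction. Aspn and Dcn, relatives of Lum in the same proteoglycan family, differed by -5.13 and -4.74. The collagen chain Col3a1 had severe 24 h ratios of 0.024, 0.0327 and 0.0924 and differed by -4.58 ± 0.55. Col14a1, a collagen that sits on fibril surfaces, differed by -4.51 and Col8a1, a short-chain collagen, by -4.67.

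Other members of the 12 largest falls have roles outside the collagen fibril. Egfl6, a secreted matrix protein with EGF-like repeats, was the most even of them, with severe 24 h ratios of 0.0456, 0.0289 and 0.036 and a difference of -4.79 ± 0.19 (limma adjusted p = 1.43e-08). Alx1, a homeobox factor of craniofacial mesenchyme, differed by -4.31 and Prss35, a serine protease-like protein, by -4.67. Actg2, the gamma actin of visceral smooth muscle, differed by -4.45, and Igf2, a fetal growth factor, by -4.41 ± 0.96. Igf2 was the least even of the 12: its severe 24 h ratios were 0.0585, 0.0125 and 0.139, with an adjusted p of 0.0108. All 12 kept their calls with the chip as a block and with any 1 of the 6 arrays left out, but Actg2 lost its call with quantile normalization (-3.50, adjusted p = 0.215).

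Most of the 12 largest rises were genes of cilia. Dynlrb2, a dynein light chain of ciliary and cytoplasmic motors, had ratios of 30.7, 7.51 and 19.2 on the severe 24 h arrays and 0.894, 1.19 and 0.918 on the reference arrays. It was 16.6-fold higher, a log2 difference of 4.05 ± 0.44 (limma adjusted p = 7.7e-05). Cfap126, Cfap144 and Cfap43, which are proteins of the cilium or flagellum, differed by 3.66, 3.62 and 2.75, Pierce1, a protein inside ciliary doublet microtubules, by 3.24, and the tubulin-binding Tppp3 by 2.84. Severe 24 h replicate 2 was the lowest of the 3 for each of these 6 genes, at 3.32 to 7.51, yet above every reference array. Fam216b, for which no role is given here, followed the same order with ratios of 30.7, 6.75 and 16.8. Myb, a transcription factor used by dividing progenitors and in multiciliated cell formation in the mouse, differed by 3.18 ± 0.47.

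Immune and glial genes were also among the 12. Gbp2, an interferon-induced GTPase, was nearly even over the arrays at 13.6, 15 and 13.4 against 0.912, 1.07 and 1.02, a rise of 14-fold or 3.81 ± 0.30 (limma adjusted p = 5.36e-06). Cfb, complement factor B of the alternative pathway, rose by 2.86 ± 0.53, and its call was lost with quantile normalization (adjusted p = 0.338). Bcas1, a marker of oligodendrocytes that are starting to make myelin, rose by 2.96 ± 0.46.

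**Figure D1:**
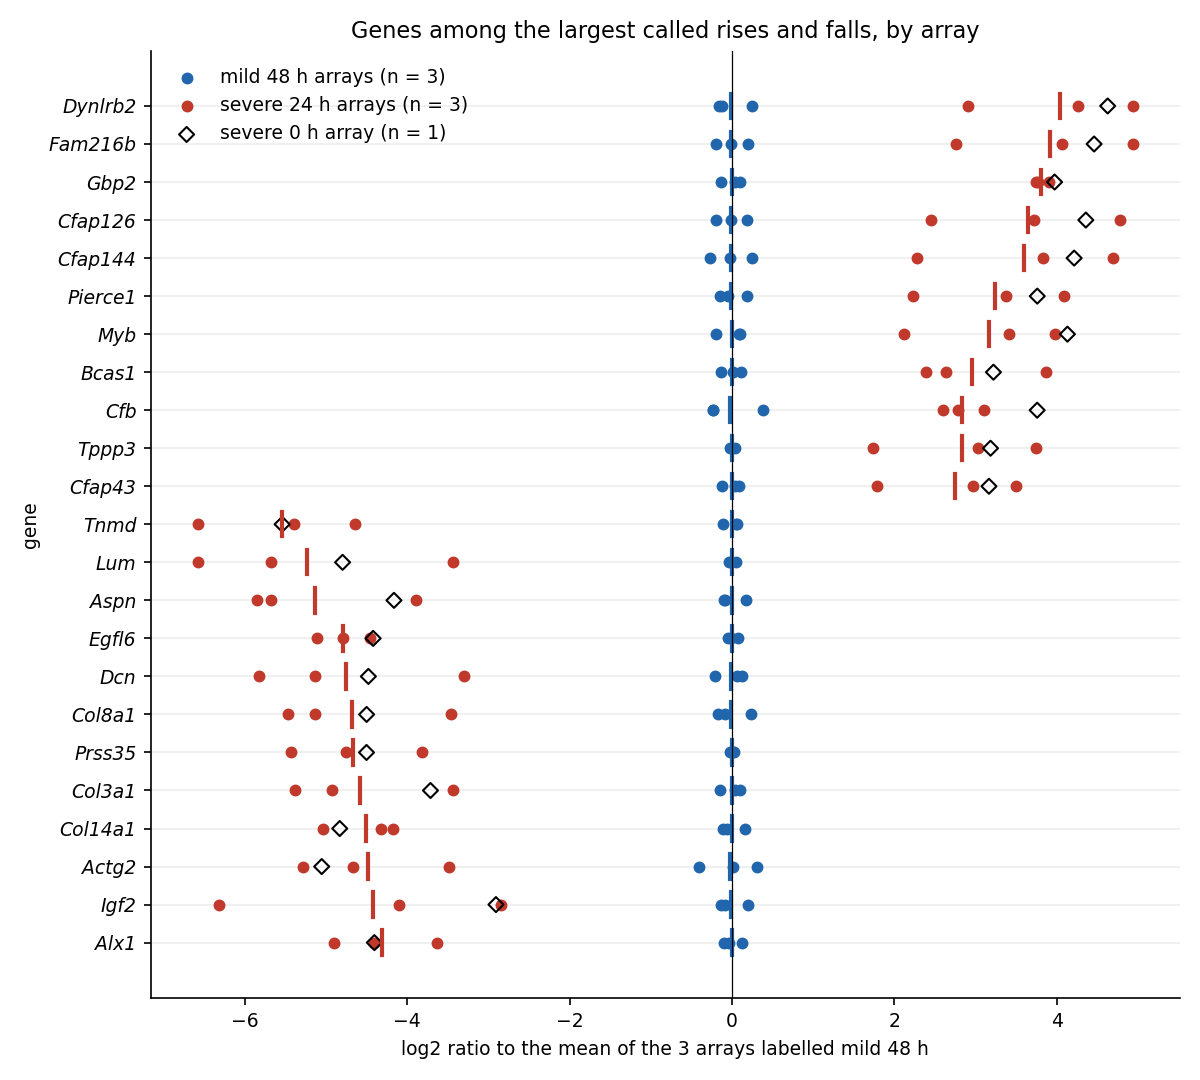
Log2 ratio (x axis) of 11 of the 12 largest called rises and the 12 largest called falls (rows) on the 3 severe 24 h arrays (red), the 3 arrays labelled mild 48 h (blue) and the single severe 0 h array (open diamonds); vertical ticks are group means. The reference arrays sit around 0, severe 24 h replicate 2 is low for the cilia genes (7.51 for Dynlrb2 as a ratio), and the 0 h array lies on the same side of 0 as the severe 24 h arrays for all genes drawn.

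The single severe 0 h array stood on the severe side for the same genes. Its ratio was 24.7 for Dynlrb2, 15.7 for Gbp2, 0.0215 for Tnmd, 0.036 for Lum and 0.0467 for Egfl6. These 0 h values share the reference arrays with the comparison above and are therefore given only beside it. The plot of the leading genes by array shows the 0 h array within or near the spread of the severe 24 h arrays.

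The genes were then read by 35 lists of cell type markers and pathways. Of 31 fibroblast and meningeal genes, 24 were lower and 0 higher, with a median of -2.78 (20 lower with the chip as a block, median -3.17 within the shared chip). Over all features 2.85% were called higher and 6.35% lower, and the counts of every list below stand beside these shares. Lower counts in the axonal, microglia, endothelial, cholesterol, p53 and cell division lists are few and are not read as a difference of the list. The median ratio of the fibroblast list on the log2 scale was -3.10, -2.92 and -2.25 on the severe 24 h arrays and between -0.05 and 0.08 on the reference arrays. By p, the leading members were Col6a1, a microfibrillar collagen, at -3.48 ± 0.17 (limma adjusted p = 8.43e-08), and Twist1, a factor of mesenchymal cells, at -1.71 ± 0.10 (3.65e-07). Col5a1, a chain that sets fibril width, differed by -3.30. The chains of type I collagen, Col1a1 and Col1a2, fell to ratios of 0.0277 to 0.0936 and 0.0737 to 0.342. Pdgfra, a receptor carried by fibroblasts and oligodendrocyte progenitors, differed by only -0.21 and was not called. Crabp2, Thy1 and Igf2 also stand in other lists, and Thy1 is a neuronal as well as a fibroblast marker.

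Matrix around vessels and basement membranes followed in part. Of 34 basement membrane and remodelling genes 14 were lower and 2 higher (median -0.71, with 13 lower and 0 higher under the chip block). Loxl2, which crosslinks collagen, had severe 24 h ratios of 0.147, 0.144 and 0.175 and differed by -2.68 ± 0.14 (limma adjusted p = 9.42e-08, and 0.0524 with quantile normalization). The metalloprotease Adamts1 differed by -2.43, and the basement membrane proteins Nid2 and Lama4 by -2.11 and -1.54. The matrix metalloprotease Mmp2 (0.11) and the inhibitor Timp1 (0.54) were not called. The 2 members that were higher were the plasminogen activator Plat at 1.27 and the laminin chain Lama5 at 1.03, and neither kept its call under the chip block (adjusted p = 0.1 and 0.155). Of 17 smooth muscle and pericyte genes, 4 were lower and 0 higher, and the median was -0.04, a value that turned to 0.05 with housekeeping centring. Those 4 were Actg2, the peptidase Anpep at -1.40, Smtn, a protein of contractile fibres, at -1.76, and the myosin light chain Myl9 at -1.51. Myl9 lost its call under the block (adjusted p = 0.181) and without severe 24 h replicate 2 or 3 or any of the reference arrays (0.0736 to 0.117). Tagln (-1.10) and Myh11 (0.24), contractile proteins by which smooth muscle is usually known, were not called.

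Among 39 genes of motile cilia and the axoneme, 26 were higher and 0 lower, with a median difference of 1.19 and a background of 2.85% called higher. The chip block kept 12 of them, and the median within the shared chip was 1.72. The list medians on the severe 24 h arrays were 1.70, 0.68 and 1.18, so the arrays differed among themselves by more than the reference arrays did (-0.04 to 0.04). Beside Dynlrb2, Cfap126 and Cfap43, the smallest p belonged to Spmip6, a sperm and cilium microtubule protein, at 2.72 ± 0.38 (limma adjusted p = 0.000614). The dynein heavy chain Dnah5 was called at only 0.24 ± 0.06, a call lost under the block (adjusted p = 0.0844). Ift88, a carrier protein needed in primary and motile cilia alike, differed by 0.03 ± 0.08 (adjusted p = 0.912) and Tekt2, a tektin filament protein, by 0.73, without a call.

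Some glial markers were higher. Of 23 astrocyte genes 12 were higher and 0 lower (median 0.92, with 6 higher under the chip block and a within-chip median of 0.84). Acsbg1, a fatty acid activating enzyme of astrocytes, had ratios of 3.47, 3.89 and 3.6 against 0.985, 0.918 and 1.10, a difference of 1.87 ± 0.13 (limma adjusted p = 1.87e-06). S100b, a calcium-binding protein, differed by 2.54, Mt3, a metallothionein of the brain, by 1.29, and Slc1a3, a glutamate transporter, by 1.03. Gfap, the intermediate filament protein by which reactive astrocytes are known, had ratios of 1.84, 1.31 and 1.93 and differed by 0.74 ± 0.19 (adjusted p = 0.0287, and 0.243 under the block). Not every astrocyte gene was higher: Sox9, a glial transcription factor, differed by less than 0.005 with an SE of 0.09, and the gap junction gene Gjb6 by -1.27 without a call.

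In the oligodendrocyte lineage 8 of 23 genes were higher and 0 lower (median 0.44, with 4 higher and a median of 0.24 under the block). Olig1, a factor of the lineage, had ratios of 3.41, 3.65 and 3.5 and differed by 1.82 ± 0.21 (limma adjusted p = 0.000105). Nkx2-2, which promotes differentiation, differed by 2.38, and the myelin membrane protein Mal by 1.60. The myelin proteins Mbp (0.56 ± 0.44) and Mog (0.45 ± 0.34) were not called, nor was Olig2 (0.05 ± 0.07), the partner of Olig1.

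Neuronal genes differed mainly between the severe 24 h arrays themselves. Of 27 neuron identity genes 2 were lower and 0 higher, beside a background of 6.35% called lower, and under the chip block 0 were called. The list median on the 3 severe 24 h arrays was -0.39, 0.03 and -1.66, against -0.03 to 0.04 on the reference arrays. Replicate 3 stood low and replicate 2 level with the reference arrays. Snap25, a SNARE protein of synaptic vesicle release, showed the spread, with ratios of 1.59, 2.19 and 0.285. Its mean difference was 0.00 with an SE of 1.03, so that a wide range of differences is compatible with these arrays. Tubb3, the neuronal beta tubulin, had ratios of 0.406, 0.582 and 0.155 (-1.59 ± 0.56, limma adjusted p = 0.112). Neurod6, a factor of excitatory cortical neurons, had 0.463, 1.01 and 0.0975. Map2 and Rbfox3, which mark dendrites and neuronal nuclei, differed by 0.10 ± 0.09 and 0.01 ± 0.09.

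The 2 neuron genes that fell were Thy1, at ratios of 0.249, 0.34 and 0.113, and the vesicular glutamate transporter Slc17a6, at 0.281, 0.565 and 0.171. Their differences were -2.22 ± 0.51 (limma adjusted p = 0.0158) and -1.73 ± 0.44 (0.028). Under the chip block the adjusted p was 0.188 and 0.189. The Thy1 call was also lost without severe 24 h replicate 3 or reference replicate 1 or 3 (0.0515 to 0.0713). Only the loss of severe 24 h replicate 2 left Slc17a6 called, the other 5 omissions giving 0.0737 to 0.118. Of 36 axonal cytoskeleton genes 2 were lower and 0 higher, near the 6.35% called lower in all features. They were the growth cone protein Dpysl3 at -1.06 and the tubulin Tubb2b at -0.64. Dpysl3 lost its call under the block (0.133) and without severe 24 h replicate 1 or 3 or reference replicate 1 or 2 (0.0538 to 0.0743). Tubb2b lost it under the block (0.253) and in 5 of 6 omissions, all but that of severe 24 h replicate 2 (0.104 to 0.182).

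Receptor and channel genes showed few differences. None of 34 glutamate and GABA receptor subunits was called, with a median of 0.04 (quartiles -0.06 and 0.10). In 34 synapse and vesicle genes the only call was Slc17a6. Syn1, which tethers synaptic vesicles, differed by -0.07 ± 0.20. Of 40 voltage-gated channel genes 1 was higher, the sodium channel subunit Scn4b at 0.44 ± 0.09, and 1 lower, the T-type calcium channel Cacna1g at -1.15 ± 0.20. Of 34 calcium handling genes 1 was higher, the buffer Calb1 at 2.03 ± 0.37 with ratios of 6.54, 2.38 and 4.37, and 1 lower, the calpain inhibitor Cast at -0.69 ± 0.09. Scn4b, Cacna1g and Calb1 lost their calls under the chip block (adjusted p = 0.0645, 0.0552 and 0.053), and Cast kept its call (0.0166) but lost it with quantile normalization (0.128).

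The endothelial list median was near the reference level on each severe 24 h array, at -0.03, -0.07 and 0.08. The microglial list median was 0.22, -0.02 and -0.35 on these arrays, against -0.06 to 0.01 on the reference arrays. Of 22 microglia and macrophage genes 0 were higher and 1 lower, Tmem119 at -0.27, and of 14 endothelial genes 0 were higher and 2 lower, Emcn at -0.48 and Cldn5 at -0.32. The median differences of the microglial and endothelial lists were -0.03 and -0.02. Both became positive with housekeeping centring (0.06 and 0.07), the microglial one also under the block (0.10). None of the 3 calls held under the chip block (adjusted p = 0.283, 0.0596 and 0.0658). Tmem119 and Cldn5 also lost theirs without severe 24 h replicate 1 or 3 or reference replicate 1 or 3 (0.104 to 0.166 and 0.0568 to 0.103). Individual microglial genes varied over the severe 24 h arrays: Aif1, a calcium-binding protein of microglia, had ratios of 2.22, 0.996 and 0.327, and the complement subunit C1qb 1.51, 0.41 and 0.178. The values were highest in replicate 1 and lowest in replicate 3. The shifts of fibroblast, cilia and glial markers accompany every pathway difference given next, and their part in those differences was not tested.

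**Figure D2:**
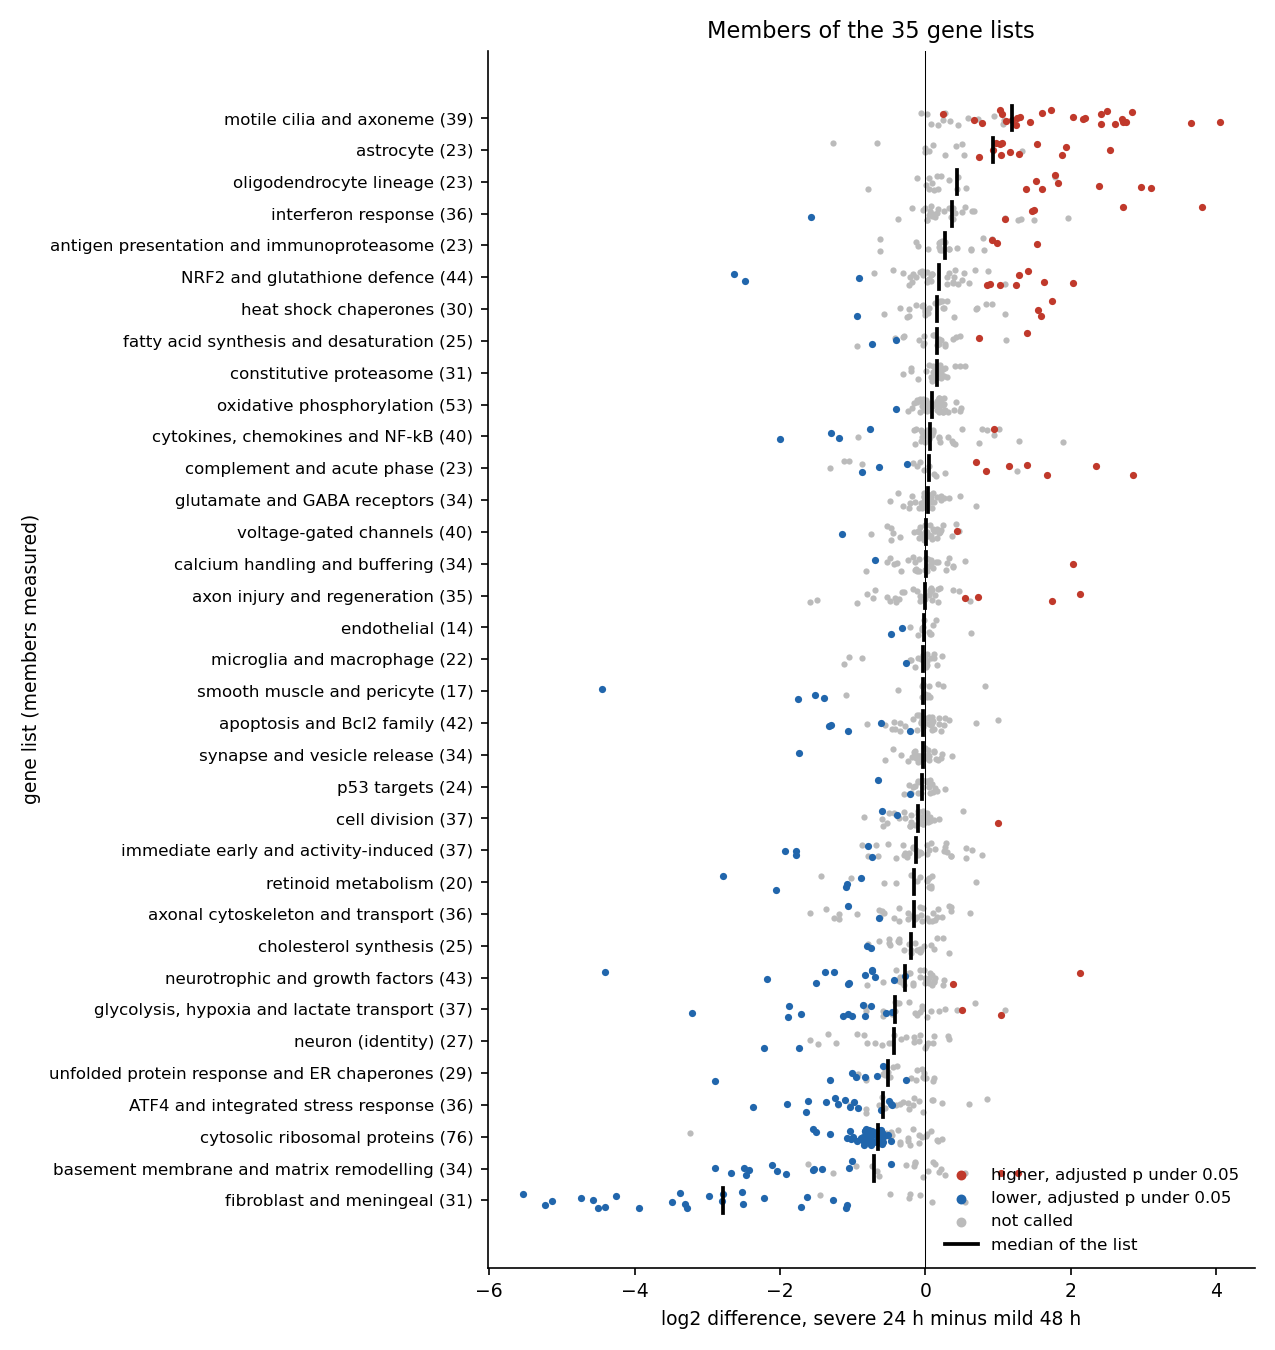
Log2 difference, severe 24 h minus mild 48 h (x axis), of every measured member of the 35 lists (rows, with the number measured), coloured where the adjusted p was under 0.05, with the list median as a black bar. Fibroblast and meningeal genes lie lowest (median -2.78), motile cilia genes highest (median 1.19), and ribosomal protein genes form a tight group around -0.66.

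Most genes of the cytosolic ribosome were lower. Of 76 cytosolic ribosomal protein genes, 52 were lower and 0 higher, with a median of -0.66 and quartiles of -0.81 and -0.49 (27 lower under the chip block, median -0.75 within the shared chip). On the arrays the list medians were -0.68, -0.73 and -0.66 at severe 24 h and -0.12 to 0.08 on the reference arrays. Rps2, a protein of the small subunit, had ratios of 0.338, 0.452 and 0.418 and differed by -1.32 ± 0.17 (limma adjusted p = 0.000384). Fau, which encodes a ubiquitin-like fusion with the small subunit protein S30, differed by -0.86. Rpl27a and Rpl35 of the large subunit differed by -0.77 and -0.84. Rpl30, singled out after its values were seen, had ratios of 0.0357, 0.743 and 0.0445, and its difference of -3.23 ± 1.14 was not called. With housekeeping centring, in which these genes take part, the median was -0.56. In contrast 0 of 31 proteasome and 1 of 53 oxidative phosphorylation genes were called. That gene, Ndufv3 of complex I, differed by -0.40 and lost its call under the block (0.13) and with any 1 of the 6 arrays left out (0.0674 to 0.106).

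Targets of ATF4, a transcription factor that the integrated stress response switches on when amino acids run short or unfolded protein builds up, were lower in part. Of 36 genes 15 were lower and 0 higher (median -0.58, 9 lower under the block, within-chip median -0.61). Trib3, a pseudokinase that restrains the response, had ratios of 0.178, 0.186 and 0.22 against 0.953, 1.07 and 0.979, a difference of -2.37 ± 0.13 (limma adjusted p = 1.5e-07). Pck2, the mitochondrial phosphoenolpyruvate carboxykinase, had 0.336, 0.334 and 0.314 and differed by -1.61 ± 0.09. Chac1, which degrades glutathione, differed by -1.04 and Vldlr, a lipoprotein and reelin receptor, by -1.64. The severe 24 h arrays were nearly alike for these genes and far from the reference arrays. Phgdh, the first enzyme of serine synthesis, differed by 0.84 and Slc7a11, the cystine transporter, by 0.09, and neither was called. In the unfolded protein response and its chaperones 8 of 29 genes were lower and 0 higher (median -0.52, 3 lower under the block). Creb3l1, a membrane-bound factor of secretory cells, differed by -2.89, Xbp1, a central factor of the response, by -1.31, P4hb, a disulphide isomerase, by -1.01 and Dnajc3, a co-chaperone, by -0.96. Dnajc3 lost its call under the block (0.111) and in all omissions but that of severe 24 h replicate 1 (0.0503 to 0.0598). The chaperones Hspa5 (-0.58 ± 0.22) and Hsp90b1 (-0.94 ± 0.33) were not called.

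Interferon genes were raised in part. Of 36 listed genes 5 were higher and 1 lower, with a median of 0.36 (3 higher and 1 lower under the block). After Gbp2, the smallest p among rises belonged to Irf1, a transcription factor of the response, with ratios of 2.44, 1.92 and 2.07 and a difference of 1.10 ± 0.13 (limma adjusted p = 0.000211). Irgm, an interferon-induced GTPase, had 3.53, 1.71 and 3.49 and differed by 1.47 ± 0.28. Ifitm1, a membrane protein that restricts viruses, was lower by -1.58 ± 0.24, a call lost with quantile normalization (adjusted p = 0.494). Cxcl10, a chemokine for T cells, had ratios of 2.05, 3.68 and 7.69 and was not called (1.95 ± 0.83). The list medians were 0.20, 0.11 and 0.56 on the severe 24 h arrays, replicate 3 being the highest, and 0.90 on the 0 h array.

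Of 23 genes of antigen presentation 3 were higher and 0 lower: the immunoproteasome subunits Psmb8 (1.54 ± 0.21) and Psmb9 (0.99 ± 0.16) and the peptide transporter Tap2 (0.92 ± 0.19). Tap2 lost its call under the block (adjusted p = 0.0642). Of 23 complement and acute phase genes 7 were higher and 3 lower (4 and 1 under the block, median 0.05). C2, a protease of the classical pathway, had ratios of 3.74, 2.33 and 3.65 and rose by 1.67 ± 0.23 (limma adjusted p = 0.000493), and C1r, which starts that pathway, rose by 1.16. Cfd, the protease that acts on factor B, was lower by -0.87 ± 0.14. Of 40 cytokine, chemokine and NF-kB genes 1 was higher, Il18 at 0.94, and 4 were lower (1 and 3 under the block). The lower genes by p were Il1rl1, the receptor of interleukin-33, at ratios of 0.22, 0.263 and 0.25, the adhesion molecule Icam1 at a log2 difference of -1.19 and the inflammatory caspase Casp4 at -1.29. With quantile normalization Il1rl1 and Icam1 lost their calls (adjusted p = 0.845 and 0.177). Ccl2, a monocyte chemokine, had ratios of 1.34, 18.6 and 2.01, so 1 of the 3 arrays carried its difference of 1.89 ± 0.98, which was not called. Tnf differed by 0.01.

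To show the letters that such responses are known to act through, RefSeq promoter sequences (assembly GRCr8, 250 bases before to 50 after the annotated start) were searched on both strands for 1 motif per list. They were TTTCNNTTT, the core of the interferon-stimulated element, TGATGNAA, which C/EBP-ATF dimers bind, and GTTNCCATG, part of the X-box bound by RFX factors of cilia genes. The interferon motif stood in 20 of the 28 interferon genes with a promoter (71.4%) and in 11.5% of all 27457 promoters. The C/EBP-ATF motif stood in 9 of 33 ATF4 genes (27.3%) and in 3.82% of all, and the X-box letters in 2 of 32 cilia genes (6.25%) and in 1.7% of all. Called members were not alone in holding it: 2 of the 4 raised interferon genes with a promoter, 3 of the 12 lowered ATF4 genes and 1 of the 22 raised cilia genes held their list's motif. A match is a description of these letters and not a bound site. The 6 called members with a match are printed 5′ to 3′ on the strand of the gene, with the match in capitals in either orientation.
Gbp2 (chr2:234005477-234005776, plus strand): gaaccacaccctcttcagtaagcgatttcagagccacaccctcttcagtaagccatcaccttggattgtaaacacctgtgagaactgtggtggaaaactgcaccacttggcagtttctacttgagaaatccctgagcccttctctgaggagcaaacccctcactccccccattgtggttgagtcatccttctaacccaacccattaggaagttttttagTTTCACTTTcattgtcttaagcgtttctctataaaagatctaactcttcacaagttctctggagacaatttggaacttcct
Irgm (chr10:33742529-33742828, minus strand): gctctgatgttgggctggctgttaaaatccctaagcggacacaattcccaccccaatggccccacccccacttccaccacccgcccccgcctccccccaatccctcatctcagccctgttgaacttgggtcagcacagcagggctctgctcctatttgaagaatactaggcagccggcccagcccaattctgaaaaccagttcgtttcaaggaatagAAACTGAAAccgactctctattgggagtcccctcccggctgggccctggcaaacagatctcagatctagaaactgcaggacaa
Pck2 (chr15:32997603-32997902, plus strand): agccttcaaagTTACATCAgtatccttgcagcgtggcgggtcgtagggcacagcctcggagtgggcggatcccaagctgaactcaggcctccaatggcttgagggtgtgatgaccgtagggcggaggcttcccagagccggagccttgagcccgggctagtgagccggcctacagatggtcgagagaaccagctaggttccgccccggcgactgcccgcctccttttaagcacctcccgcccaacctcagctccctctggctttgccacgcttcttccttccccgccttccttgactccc
Trib3 (chr3:161275484-161275783, minus strand): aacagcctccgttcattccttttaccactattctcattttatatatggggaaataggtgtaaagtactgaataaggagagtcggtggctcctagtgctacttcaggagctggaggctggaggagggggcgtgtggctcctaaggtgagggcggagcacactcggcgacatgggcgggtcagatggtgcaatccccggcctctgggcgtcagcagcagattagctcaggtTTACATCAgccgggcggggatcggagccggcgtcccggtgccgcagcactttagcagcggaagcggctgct
Chac1 (chr3:126795881-126796180, plus strand): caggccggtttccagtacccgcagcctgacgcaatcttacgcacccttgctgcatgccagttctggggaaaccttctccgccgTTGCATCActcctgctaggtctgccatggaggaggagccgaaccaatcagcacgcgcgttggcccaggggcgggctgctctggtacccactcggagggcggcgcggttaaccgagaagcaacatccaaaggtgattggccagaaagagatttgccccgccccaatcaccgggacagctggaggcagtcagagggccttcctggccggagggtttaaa
Cfap161 (chr1:147177772-147178071, minus strand): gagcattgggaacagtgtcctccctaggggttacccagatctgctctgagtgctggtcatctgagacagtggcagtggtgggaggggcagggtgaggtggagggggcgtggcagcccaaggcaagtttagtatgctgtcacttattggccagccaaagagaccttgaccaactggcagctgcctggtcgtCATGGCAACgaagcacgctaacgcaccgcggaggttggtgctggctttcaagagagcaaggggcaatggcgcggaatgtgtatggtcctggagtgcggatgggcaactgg
Pck2 and Trib3 share the same 8 letters in capitals, TTACATCA, while Chac1 carries TTGCATCA, which differs at the motif's N. Cfap161, a ciliary protein, differed by 2.03 ± 0.40 (limma adjusted p = 0.00614, and 0.059 under the block).

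Some genes of glucose handling and of the response to low oxygen were lower. Of 37 genes of glycolysis, hypoxia and lactate transport 12 were lower and 2 higher (median -0.42, 9 lower and 0 higher under the block). Slc16a3, a transporter that exports lactate, had ratios of 0.0961, 0.126 and 0.103 and differed by -3.21 ± 0.16 (limma adjusted p = 7.94e-08). P4ha2, a collagen prolyl hydroxylase subunit, differed by -1.71, Vegfa, the vascular growth factor, by -0.83 ± 0.07 and Ndrg1, a stress and hypoxia gene, by -0.86. The Vegfa call was lost with quantile normalization (adjusted p = 0.15). Hif1a, the oxygen-regulated factor itself, differed by -0.08 ± 0.20 and the glycolytic enzyme Gapdh by -0.23 ± 0.16, without a call. The higher genes were Aldoc, the aldolase of astrocytes, at 1.04, and the lactate transporter Slc16a1 at 0.50.

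Antioxidant genes were called higher more often than the 2.85% of all features, while their lower count was near the 6.35% of all. Of 44 NRF2 and glutathione genes 8 were higher and 3 lower (4 and 2 under the block, median 0.19). Mgst2, a microsomal glutathione transferase, had ratios of 0.145, 0.168 and 0.174 and differed by -2.63 ± 0.11 (limma adjusted p = 1.51e-08), and Gpx7, a peroxidase of the endoplasmic reticulum, differed by -2.48. Gstm1, a soluble glutathione transferase, rose by 2.03 ± 0.31. Hmox1 (1.09 ± 0.48) and Nqo1 (0.03 ± 0.33), 2 targets by which NRF2 activity is usually read, were not called. Of 30 heat shock genes 3 were higher and 1 lower (2 and 1 under the block). The small heat shock proteins Hspb1 and Hspb8 rose by 1.75 and 1.55, Hspa4l by 1.59 with the call lost under the block (adjusted p = 0.0942), and Hspa12b was lower by -0.94 ± 0.09. The cytosolic chaperones Hsp90aa1 (0.69) and Hspa8 (0.20) were not called.

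Lipid and retinoid genes were read next. Srebf1, a factor of fatty acid synthesis, rose by 1.40 ± 0.18 and the acyl-CoA synthetase Acsl6 by 0.74 ± 0.10, the latter with a call lost under quantile normalization (adjusted p = 0.128). In the fatty acid list 2 of 25 genes were higher and 2 lower (2 and 0 under the block). The lower genes, the acyltransferase Agpat2 (-0.73) and the desaturase Fads2 (-0.41), lost their calls under the block (adjusted p = 0.142 and 0.146). Agpat2 lost it too without severe 24 h replicate 1 or reference replicate 2 or 3 (0.0633 to 0.0738), and Fads2 with any 1 of the 6 arrays left out (0.0738 to 0.173). Of 25 cholesterol genes 2 were lower and 0 higher, the transfer protein Stard4 (-0.80) and the reductase Tm7sf2 (-0.75). Neither kept its call under the block (0.132 and 0.292) or, except for the loss of severe 24 h replicate 2, with 1 array left out (0.0659 to 0.142 and 0.0845 to 0.142). Of 20 retinoid genes 5 were lower and 0 higher (3 under the block). They include the alcohol dehydrogenase Adh1c (-0.88 ± 0.10), the receptor Rara (-1.09 ± 0.18), the binding protein Crabp2 (-2.78 ± 0.50) and Cyp26b1 (-2.06 ± 0.54), which degrades retinoic acid. With quantile normalization Adh1c stood at -0.30 and lost its call (adjusted p = 0.944). The Cyp26b1 call was lost under the block (0.209) and in every omission but that of severe 24 h replicate 2 (0.0932 to 0.134).

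Growth factor genes were lower more often than higher. Of 43 genes 13 were lower and 2 higher (median -0.29, 9 and 0 under the block, and -0.08 without severe 24 h replicate 3). Igfbp6, which binds IGF2, had ratios of 0.21, 0.18 and 0.288 and differed by -2.17 ± 0.25 (limma adjusted p = 0.000116). Tgfb1 differed by -1.26 ± 0.16 and Igfbp4 by -0.43 ± 0.06, the latter with a call that was lost with housekeeping centring (adjusted p = 0.396). Bdnf, the neurotrophin released with activity, had ratios of 0.673, 1.54 and 0.507 and was not called, nor was Gdnf (0.11). Of 35 axon injury and regeneration genes 4 were higher and 0 lower (1 higher under the block), Hspb1 among them. Cntf, a cytokine of glia that supports injured neurons, rose by 2.12 ± 0.39 with ratios of 5.93, 2.59 and 5.28, Sarm1, an enzyme of axon degeneration, by 0.54 and Stat3, a factor that cytokines activate, by 0.72. All but Hspb1 lost their calls under the block (0.065, 0.0717 and 0.117), and Stat3 also without severe 24 h replicate 2 or reference replicate 1 or 2 (0.0519 to 0.0531). Atf3 and Gap43, which axotomy is known to induce in regenerating neurons, differed by 0.07 ± 0.20 and -0.69 ± 0.38 without a call.

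Of 37 immediate early genes 5 were lower and 0 higher (3 under the block, median -0.12). Klf2, a factor of endothelium and quiescent cells, had ratios of 0.281, 0.297 and 0.297 against 0.956, 1.04 and 1.00, a difference of -1.78 ± 0.07 (limma adjusted p = 1.43e-08). Its relative Klf4 differed by -1.78 ± 0.35, Gadd45b, a stress-induced regulator, by -0.79 and Ier2 by -0.73, the last with its call lost under the block (adjusted p = 0.12). Fos and Arc, which neuronal activity induces, differed by 0.64 ± 0.27 and 0.36 ± 0.29 without a call. Of 42 apoptosis genes 5 were lower and 0 higher (2 lower under the block), among them the caspases Casp12 (-1.33 ± 0.17) and Casp4, the mitophagy protein Bnip3 (-1.07) and the apoptosome scaffold Apaf1 (-0.61). Bnip3 (0.0636) and Apaf1 (0.12) were not called under the block, and Apaf1 was not called without severe 24 h replicate 3 (0.0568). Bcl2, the survival protein, differed by 0.07 ± 0.08 without a call.

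Of 24 p53 targets 2 were lower and 0 higher, the cyclin Ccng2 at -0.65 and the cell death gene Pmaip1 at -0.22. Neither held under the block (adjusted p = 0.081 and 0.203), and Pmaip1 was called only in the omission of reference replicate 1 (0.0662 to 0.145 in the other 5). Cdkn1a, the p53-induced cell cycle inhibitor, differed by -0.23 ± 0.12. Of 37 cell division genes (1 higher and 0 lower under the block) 1 was higher, the mitotic kinase Aurkb at 0.99 ± 0.16, and 2 were lower, the nucleotide synthesis enzymes Rrm1 at -0.39 and Tyms at -0.60. Rrm1 and Tyms lost their calls under the block (0.154 and 0.116), Rrm1 also without severe 24 h replicate 3 or reference replicate 1 or 3 (0.0547 to 0.0667), and Tyms with any 1 of the 6 arrays left out (0.0646 to 0.175). Mki67, the usual mark of cycling cells, differed by -0.03 ± 0.07.

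Against the other severe arrays no feature was called at 24 h. At 8, 15, 48 and 0 h, 0 of 21864 features passed an adjusted p under 0.05 (0% each, limma). An unadjusted limma p under 0.05 was reached by 700, 627, 717 and 479 (3.2%, 2.87%, 3.28% and 2.19%). With no difference at any feature, a proportion of 0.05 would be expected to reach it, which is more than each of these. The SD of the log2 differences over all features was 0.13 against 8 h, 0.157 against 15 h, 0.179 against 48 h and 0.204 against the single 0 h array. It was 0.453 against the reference arrays. Differences of at least 1 on the log2 scale numbered 4, 47, 42 and 105, compared with 937 against the reference arrays. The median standard error was 0.09 in the comparisons of 3 against 3 arrays and 0.127 against 0 h.

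**Figure D3:**
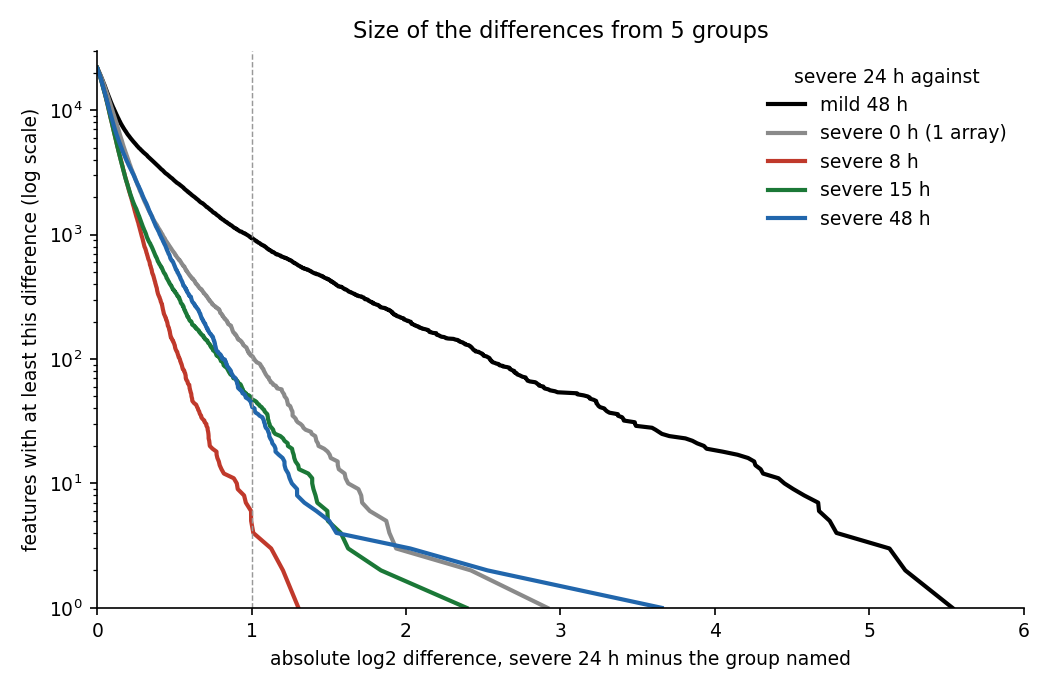
Number of features (y axis, log scale) whose absolute log2 difference reaches at least the value on the x axis, for severe 24 h against 5 groups. At the dashed line (a difference of 1) the curve for mild 48 h stands at 937 features and those for severe 8, 15, 48 and 0 h at 4, 47, 42 and 105.

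A missing call does not show that the severe times were alike, and single genes had wide intervals. For Gbp2 the difference between 24 h and 15 h was -0.52, with a 95% interval of -1.18 to 0.15. Egfl6 had the narrowest intervals of the genes in that plot, -0.53 to 0.30 against 8 h and -0.59 to 0.23 against 48 h. For Igf2 the difference from 15 h was -1.84 with an interval of -3.92 to 0.25. Against 0 h, the smallest adjusted p was 0.368, for Vwf, an endothelial clotting protein, at -0.69.

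List medians were also compared by array over time. For fibroblast and meningeal genes they were -2.48 at 0 h, -2.94 to -2.31 at 8 h, -2.58 to -1.92 at 15 h and -2.88 to -2.28 at 48 h, beside -3.10 to -2.25 at 24 h. The ranges of the 3-array groups overlapped. For cilia genes the medians were 1.68 at 0 h, 1.04 to 1.58 at 8 h, 1.44 to 1.73 at 15 h, 0.68 to 1.70 at 24 h and 0.94 to 1.99 at 48 h. Neuron identity genes spread widely within each time, from -0.91 to 0.08 at 8 h, -1.72 to -0.14 at 15 h, -1.66 to 0.03 at 24 h and -2.16 to -0.24 at 48 h. The 0 h array stood at -1.47. Interferon genes ranged from 0.18 to 1.09 at 15 h and from 0.11 to 0.56 at 24 h. The arrays of one time differed from each other in these last lists by as much as the times did.

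**Figure D4:**
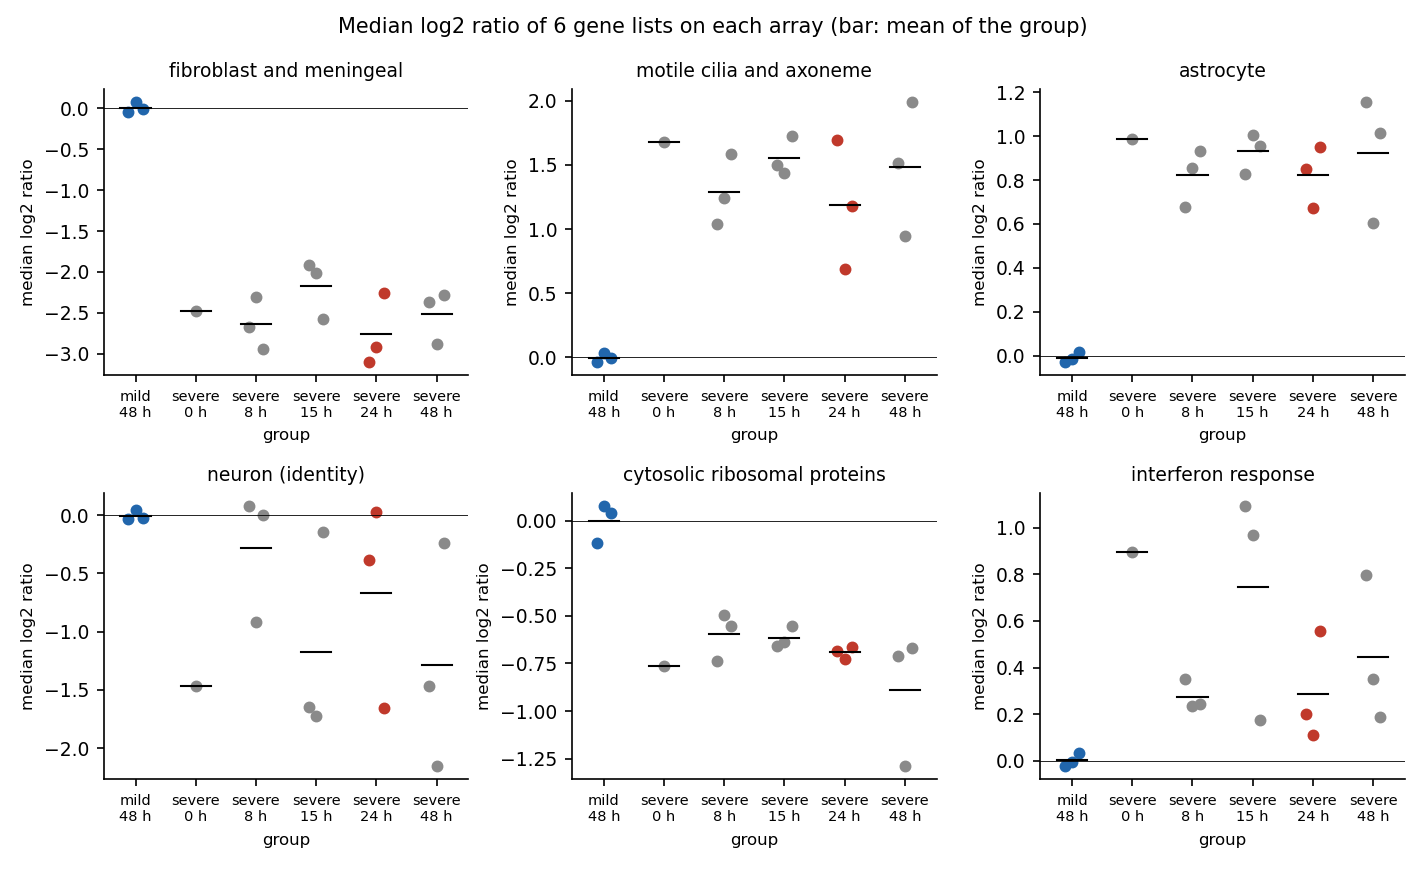
Median log2 ratio (y axis, own scale in each panel) of 6 gene lists on each array by group, with the 3 reference arrays in blue, severe 24 h in red, other severe arrays in grey and the group mean as a bar. Fibroblast, cilia, astrocyte and ribosomal medians of every severe array stand apart from the reference arrays, while neuron medians at severe 24 h run from -1.66 to 0.03.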

How the data were processed

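RNA was measured on 34 one-colour bead arrays. The authors deposited ratios, described only as far as the labels go, and a search over 5984 triples of arrays gave the divisors: 2 triples averaged 1 within a tolerance of 0.0001. Control replicates 1 to 3 divide 18 arrays and the arrays labelled mild 48 h divide the 16 used here. The deposited signal table has 34 columns whose names match no sample, so its values entered no comparison and served only to find divisors and table order. Background correction and other steps before the signals are not given in the sources used here. Bead detection was not used, so the number of arrays limits precision.

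From the deposited ratios, log2 values were taken without a pseudocount, and probes of 1 gene were averaged (354 genes). Of 22226 probes, 13192 were named from the platform annotation, 363 through RefSeq accessions, 8563 from the deposited description and 108 not at all. limma 3.58.1 (R 4.3.3) was fitted to the 16 arrays with 1 mean per group, lmFit and eBayes, two-sided, 10 residual degrees of freedom, Benjamini-Hochberg adjustment over 21864 features and a threshold of 0.05. Simulated data for severe 24 h against mild 48 h held 21864 features, 100 of them changed. Of changes of 1 on the log2 scale 88% were recovered and of changes of 2 99%, each with 7 false calls. The data gave 2012 calls, so these shares may not carry over to them. Tables and plots used Python 3.11.15, pandas 2.3.3 and matplotlib 3.10.9.

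Genes were named by rule: the 12 largest called rises and falls whose groups did not overlap, leaving out provisional symbols; in each list up to 4 called members with the smallest p and up to 2 well-known members without a call; and the cell type markers. A few members named beyond this rule were chosen after their values were seen. The arrays, the 35 lists and the rule were chosen with earlier results of these data known. Some genes that fall under the rule are not reported here, but they stay in the counts and medians.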

Additional observations from a re-analysis of the deposited data

How the results depend on the processing

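Between severe 24 h and the reference arrays, 2012 calls became 804 with a minimum difference of 1 on the log2 scale, 909 (154 higher, 755 lower) with the chip as a block, and 3135 (1241 higher, 1894 lower) when all 34 arrays shared the spread. Leaving out 1 of the 6 arrays gave 1307 to 1992 calls, the lowest without reference replicates 3 (1307) and 2 (1328). Quantile normalization gave 1413, median centring 2103, housekeeping centring 2231, every probe as a feature 2014, a trended and robust prior 1537, and the 6 arrays alone 2987. Leaving out features at the smallest ratio gave 2008. That fit held 115 of the 118 called genes chosen by rule, and Tnmd and Lum were among those left out. Without the severe 48 h arrays, a setting chosen after seeing the data, there were 3010. The median SD between arrays was 0.132 at severe 48 h, 0.099 at severe 24 h and 0.076 on the reference arrays. Severe 48 h replicate 2 stood low, with medians of -1.29 for ribosomal and -0.61 for oxidative phosphorylation genes. For the latter list, severe 48 h replicates 1 and 3 had 0.04 and 0.33. All these arrays enter the spread behind every standard error and p-value of the main fit. The causes were not tested. Against severe 0 h, 0 calls became 2 with all 34 arrays and 1 without severe 24 h replicate 2 (leave-one-out range 0 to 1). Against 8, 15 and 48 h the count was 0 in every setting run.

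Same-numbered arrays of the 2 groups had correlations of -0.102, 0.0427 and -0.0443 between their deviations, so they share only a number. With the replicate number as a block, 2181 features were called in the 6 arrays and 1989 in the 16, the latter chosen after seeing the data. Of the 118 called genes that fall under the naming rule, 87 kept their call with the chip as a block and 98 with any 1 of the 6 arrays left out. Of the same 118 genes, 95 kept their call with quantile normalization, 105 with housekeeping centring and 110 with a trended and robust prior. None of the 118 reversed in any setting run. They were chosen by their calls in these same arrays, so this was largely fixed in advance and is no test. Of all 2012 calls, 904 remained with the chip as a block. Genes without a call were not followed through the settings, and those near 0 have no direction to read. With housekeeping centring the medians of the smooth muscle, microglia, endothelial, synapse, axon injury, apoptosis and p53 lists moved from just below to just above 0, so no direction is read from them. Ratios hold no signal over background, so dim probes could not be left out.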

Other observations

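The smallest adjusted p-values belonged to genes not named above among the largest rises and falls. Some of their differences were nonetheless large, that of Tspan8 being close to that of Alx1 (-4.31), the least of the largest falls named above. The genes given here were chosen after their values were seen. Tspan8, a tetraspanin of the cell surface, had severe 24 h ratios of 0.0466, 0.0493 and 0.0568 against 0.934, 1.13 and 0.939, a difference of -4.30 ± 0.10 (limma adjusted p = 1.91e-10). Panx3, a channel protein of skeletal tissue, had 0.079, 0.0683 and 0.0833 and differed by -3.71 ± 0.09 with the same adjusted p. The 3 severe 24 h arrays lay close together for both genes. Avpr1a, a vasopressin receptor, differed by -3.25 ± 0.09, and H19, an imprinted non-coding RNA beside Igf2, by -3.29 ± 0.09 with ratios of 0.101, 0.0984 and 0.107. The even H19 values contrast with those of Igf2, at 0.0585, 0.0125 and 0.139. Tnfrsf11b, the decoy receptor osteoprotegerin, differed by -3.32 ± 0.12, Ptgis, the prostacyclin synthase, by -3.15 ± 0.13 and Fgf7, a growth factor of mesenchyme for epithelia, by -1.86 ± 0.07. The severe 0 h array read 0.0563 for Tspan8, 0.0734 for Panx3 and 0.11 for H19.

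Ttr, the thyroid hormone carrier made by choroid plexus, had severe 24 h ratios of 0.117, 0.139 and 0.0309 and a difference of -3.64 ± 0.92 (limma adjusted p = 0.0255). With the chip as a block its adjusted p was 0.15.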
